A study of Mus musculus with 28 samples.

Results

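The genes described here are 10 genes of extracellular matrix proteolysis, taken by symbol: the matrix metalloproteinases Mmp2, Mmp10, Mmp13 and Mmp14, the plasminogen activators Plau and Plat, the urokinase receptor Plaur, and the tissue inhibitors of metalloproteinases Timp1, Timp2 and Timp3. RNA was sequenced from 28 mouse samples, and the values came in 3 tables that were normalized separately. Of the 10 genes, 9 were listed in the BMP table, which has 29413 genes, and all 10 in the Tgfb and mesenchymal tables, which have 55416. The series title names the question: the roles of Tgfb superfamily ligands in the last steps of enterocyte maturation at the villus tip.

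The organoids were small-intestinal epithelial cultures grown in matrigel from crypts of wild-type C57BL/6 mice. All of them were first kept in ENR medium with no BMP or Tgfb added. In the BMP table, 4 samples were left untreated, 4 received BMP2, and 3 each received BMP3, BMP4, BMP5 or BMP7, every ligand at 500 ng/ml for 24 h. In the Tgfb table, 3 samples were untreated and 3 received recombinant Tgfb at 500 ng/ml for 24 h, with the isoform not named. The mesenchymal table held 1 sample labelled fresh and 1 sample of immortalised and sorted cells, both from the duodenum of Pdgfra H2BeGFP mice, in which the Pdgfra locus drives a nuclear green fluorescent protein. The immortalised cells carried the HPV16 E6 gene from a retrovirus, were selected with puromycin and were sorted on that fluorescence. The labels do not say whether replicates came from separate mice or cultures, so the p-values measure only the spread between these samples, which may be technical.

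Values of the BMP table are read counts divided by a size factor per sample, called normalized counts here. They rest on 21354956 to 24781434 reads per sample, with 1 read worth 0.8259 to 1.2789 normalized counts. The other tables are in TPM, a share of transcripts corrected for transcript length, which keeps no depth. All 10 epithelial markers were present in the organoids. Of the 10 mesenchymal markers, Dcn and Lum had no row in the BMP table and were at 0 in all 6 samples of the Tgfb table. The other 8 had rows in the BMP table, with Vim at 119 to 180 normalized counts in controls. In the Tgfb controls Vim was at 4.86 to 7.95 TPM. Both mesenchymal samples held all 10 mesenchymal markers, with Pdgfra at 37.5 TPM in the fresh and 112.7 TPM in the immortalised sample. Bulk values cannot tell fewer cells of a type from less RNA per cell.

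As background, these proteins form 2 linked systems for cutting the matrix around cells. Plau (urokinase) and Plat (tissue-type activator) turn plasminogen into plasmin, and Plaur holds urokinase at the cell surface, where plasmin can cut fibrin, matrix proteins and latent metalloproteinases. Mmp14 is a membrane-anchored metalloproteinase that cuts collagen and activates the secreted gelatinase Mmp2, Mmp10 is a stromelysin and Mmp13 a collagenase. The Timp proteins bind and block metalloproteinases: Timp2 also takes part in the activation of Mmp2 by Mmp14, and Timp3 stays bound to the matrix and also blocks several ADAM proteases. In the gut, much of this set is known from stromal cells and from wound edges of the epithelium.

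The RefSeq start-site table (build GRCm38.p6) held the region upstream for 7 of the 10 genes. Plau, Plat and Mmp2 had no entry. The 250 bases before the start of Plaur, Timp3 and Mmp14 are shown because these genes rose together with several ligands, and that of Mmp10 because the gene was high in mesenchymal cells and without a read in organoids. They lie at chr7:24462233-24462482, chr10:86300162-86300411, chr14:54431348-54431597 and chr9:7502092-7502341, all on the plus strand, 5′ to 3′. Capitals mark matches to the motifs TGANTCA (AP-1), AGGAAG (Ets) and GGGCGG (GC box), searched on both strands.
Plaur: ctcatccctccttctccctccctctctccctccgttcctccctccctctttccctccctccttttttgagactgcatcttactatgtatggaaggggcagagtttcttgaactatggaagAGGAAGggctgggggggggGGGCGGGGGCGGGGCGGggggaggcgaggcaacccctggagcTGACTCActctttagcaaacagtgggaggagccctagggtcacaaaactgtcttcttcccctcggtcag
Timp3: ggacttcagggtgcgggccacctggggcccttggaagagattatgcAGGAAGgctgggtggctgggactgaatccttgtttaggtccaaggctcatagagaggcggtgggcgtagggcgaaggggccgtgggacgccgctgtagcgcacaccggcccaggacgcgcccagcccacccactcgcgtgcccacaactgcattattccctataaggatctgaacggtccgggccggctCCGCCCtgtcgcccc
Mmp14: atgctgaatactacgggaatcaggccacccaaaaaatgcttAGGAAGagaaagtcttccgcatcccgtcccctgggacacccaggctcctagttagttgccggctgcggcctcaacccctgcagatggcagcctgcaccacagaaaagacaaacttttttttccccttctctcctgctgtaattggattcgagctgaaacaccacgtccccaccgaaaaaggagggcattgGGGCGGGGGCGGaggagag
Mmp10: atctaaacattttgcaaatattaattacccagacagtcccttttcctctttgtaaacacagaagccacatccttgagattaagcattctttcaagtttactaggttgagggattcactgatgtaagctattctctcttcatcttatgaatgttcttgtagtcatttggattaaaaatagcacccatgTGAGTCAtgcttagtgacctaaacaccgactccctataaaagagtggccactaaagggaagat
The window of Plaur held 1 AP-1 match 69 to 63 bases before the start, 1 Ets match and 3 GC boxes, of which the last 2 overlap. That of Timp3 held 1 Ets match and 1 GC box on the reverse strand, and that of Mmp14 held 1 Ets match and 2 GC boxes. Mmp10 had 1 AP-1 match and a TATAAA word, with no GC box. Among 32851 windows of the same length, 6.75% held the AP-1 motif, 29.5% the Ets motif, 32.7% the GC box and 12.4% TATAAA. The windows of Plaur, Timp3 and Mmp14 were 59.6%, 65.6% and 55.2% G or C, that of Mmp10 37.2%. None of the 7 windows held the Smad palindrome GTCTAGAC, which 0.167% of all windows held. These matches describe the letters only.

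In the organoids given BMP2, all 6 of the genes with enough reads to test rose: Mmp14, Plau, Plaur, Plat, Timp2 and Timp3. The rise ran from 2.19-fold for Timp2 to 32.8-fold for Timp3. BMP5 raised the same 6 genes, by 2.01-fold to 12.0-fold, and BMP7 raised 5 of them, by 2.04-fold to 15.4-fold. BMP4 lowered Mmp14, Plau and Timp2 and raised Plaur and Plat, and with BMP3 none of the 6 passed the test. Tested means a mean of at least 10 normalized counts over the table, and a gene was called changed at a Benjamini-Hochberg adjusted p under 0.05 over all 14746 genes tested with limma. Among all genes tested, 36.8% rose and 38.4% fell with BMP2, and 33.7% rose and 31.4% fell with BMP4. With BMP5 16.5% rose and 9.87% fell, and with BMP7 19.2% rose and 13.2% fell. A call alone was thus common. The median log2 change of the 6 genes with BMP2 was 3.23, against -0.03 over all genes. The genes were chosen with earlier results of these data known, so this contrast is a description and not a test of the set. Scaling every sample to the same total moved the median of all genes by -0.45 with BMP2 and by -0.39 with BMP4, and under it no called member changed direction, while the call of Plat with BMP4 was lost (log2 0.85, adjusted p 0.0966).

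**Figure D1:**
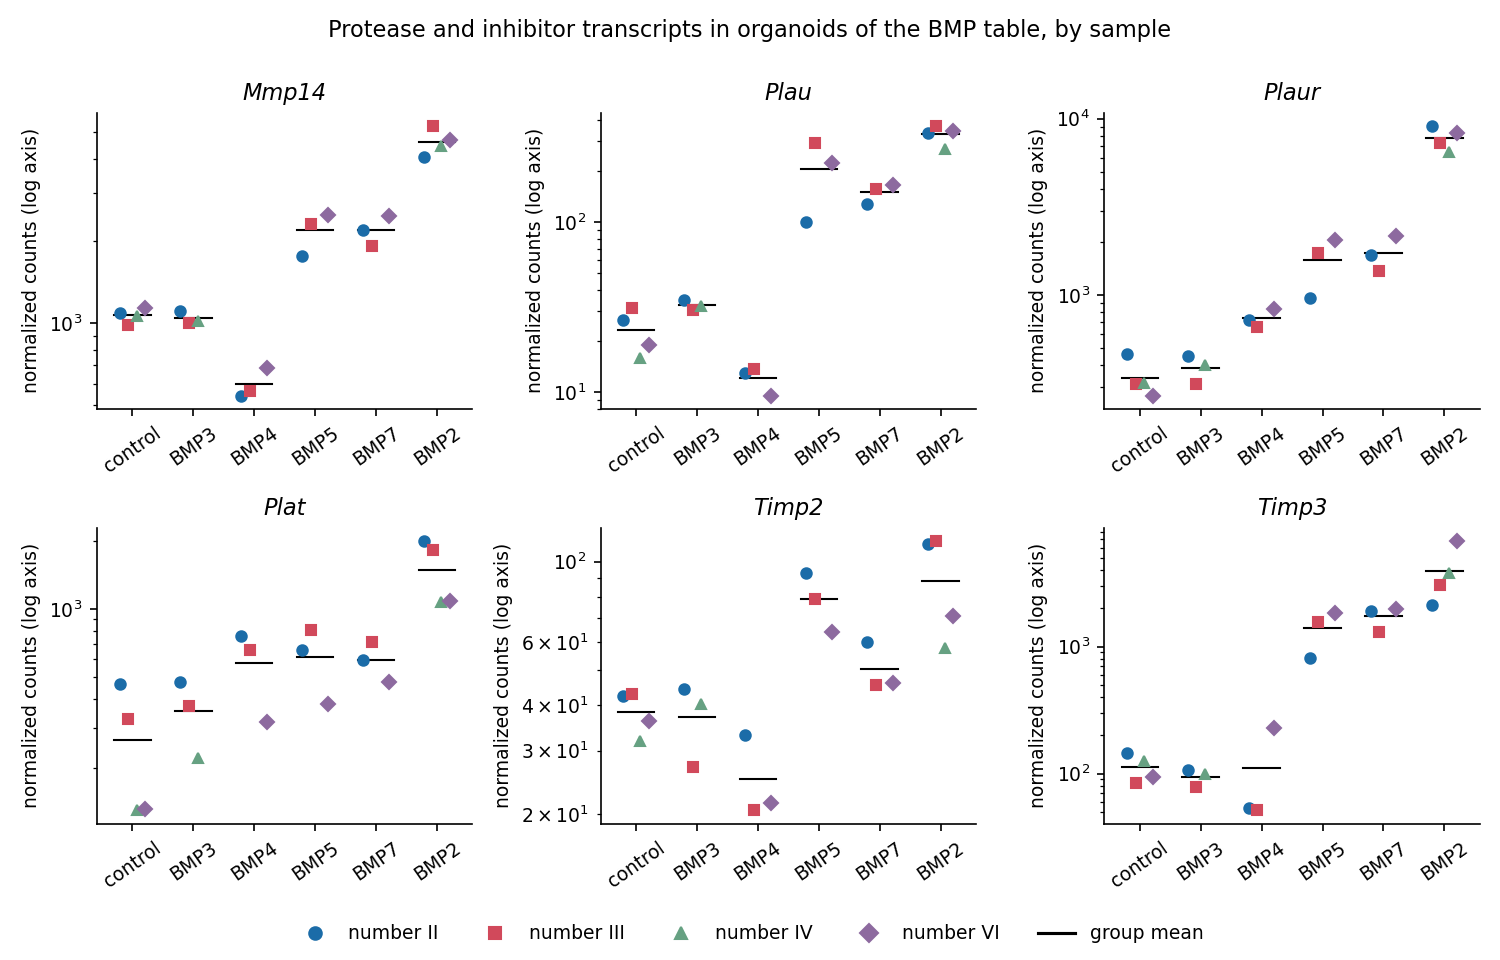
Normalized counts (log axis) of the 6 tested genes in each of the 20 organoid samples of the BMP table. Points are samples, with a symbol for each replicate number, and bars are group means. The BMP2 samples lie above all controls in every panel, and the BMP4 samples lie below all controls for Mmp14 and Plau.

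Mmp14 (ENSMUSG00000000957) was at 1090, 983, 1060 and 1140 normalized counts in the control samples II, III, IV and VI. With BMP2 it was at 4060, 5270, 4470 and 4670 in the samples of the same numbers. Every BMP2 sample exceeded every control, by 4.31-fold (log2 2.11, SE 0.114, limma adjusted p 8.1e-12). With BMP5 the values were 1760, 2310 and 2500, and with BMP7 2200, 1920 and 2460. Both groups lay above all controls and below all BMP2 samples, at 2.03-fold and 2.04-fold the control level (adjusted p 7.7e-06 and 4.53e-06 from limma). With BMP4 the 3 values were 543, 566 and 687. These were the lowest of the table, 0.559 times the control level (log2 -0.84, SE 0.123, limma adjusted p 8.08e-06). With BMP3 the values of 1110, 997 and 1020 lay among the controls. From low to high the order was therefore BMP4, then BMP3 and control with overlapping values, then BMP5 and BMP7 with overlapping values, then BMP2.

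The 3 secreted metalloproteinases among the 10 genes, Mmp2, Mmp10 and Mmp13, were nearly without reads in the organoids. This does not hold for every metalloproteinase: Mmp7, outside the 10 genes, was at a mean of 250.9 TPM in the Tgfb controls. Mmp2 (ENSMUSG00000031740) had 0 reads in 17 of the 20 samples and at most 3 reads in the others, which were 2 BMP2 samples and 1 BMP4 sample. Mmp13 (ENSMUSG00000050578) had at most 3 reads in any sample. Mmp10 was not listed in the BMP table, whose rows all have at least 1 read. In the Tgfb table Mmp2 and Mmp10 were listed at 0 in all 6 samples, and Mmp13 was listed at 0 in all but 1 Tgfb sample, at 0.0212 TPM. No fold is given for these 3 genes in organoids, because all their groups were at or under 3 reads or listed at 0.

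Plaur (ENSMUSG00000046223), the urokinase receptor, was at 463, 313, 315 and 269 normalized counts in controls II, III, IV and VI. With BMP2 it reached 9060, 7270, 6450 and 8290. The groups were far apart, 23.1-fold on average (log2 4.53, SE 0.213, limma adjusted p 1.6e-12). BMP5 gave 964, 1730 and 2050, and BMP7 gave 1680, 1360 and 2170, which is 4.51-fold and 5.11-fold the control (adjusted p 1.96e-06 and 5.42e-07). With BMP4 the values were 722, 657 and 829. All 3 exceeded every control, at 2.2-fold (adjusted p 0.00027), so the receptor rose with BMP4 where Mmp14 fell. BMP3, at 449, 313 and 401, overlapped the controls. BMP3 and control were lowest, BMP4 followed without overlap, BMP5 and BMP7 overlapped each other above it, and BMP2 was highest.

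Plau (ENSMUSG00000021822), the ligand of that receptor, was low in controls, at 26.6, 31.5, 16.0 and 19.0 normalized counts. With BMP2 it was at 335, 368, 269 and 344, which is 13.9-fold (log2 3.80, SE 0.266, limma adjusted p 2.41e-10). The BMP5 samples spread widely, at 101, 293 and 224, and the BMP7 samples were at 128, 158 and 166. Both stood above all controls, at 8.04-fold and 6.41-fold (adjusted p 6.95e-07 and 1.44e-06). With BMP4 the values were 13.0, 13.7 and 9.57, from 8 to 12 reads a sample. All 3 lay below every control, at 0.551 times their level (adjusted p 0.0137), and the adjusted p was 0.0654 without BMP4 replicate VI. In a fit with the replicate number as a block it was 0.00502 from limma (log2 -0.94, SE 0.268). BMP3 samples, at 34.7, 30.4 and 32.4, overlapped the controls. Urokinase and its receptor thus had opposite calls under BMP4 and the same call under BMP2, BMP5 and BMP7.

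Plat (ENSMUSG00000031538), the tissue-type activator, differed between replicate numbers in every group. Controls II and III were at 469 and 329 normalized counts, controls IV and VI at 130 and 132. BMP2 samples II and III were at 1990 and 1820, IV and VI at 1070 and 1080. The BMP2 samples lay above all controls, 6.28-fold on average (log2 2.65, SE 0.399, limma adjusted p 7.4e-06), and each was 4.24 to 8.23 times the control of its own number. In samples II, III and VI, Plat was at 757, 657 and 317 with BMP4, at 663, 805 and 382 with BMP5, and at 595, 719 and 478 with BMP7. These 3 groups overlapped each other and were called higher than control at adjusted p 0.0165, 0.0247 and 0.0205. The BMP4 and BMP5 values of number VI lay inside the control range, although all 9 samples exceeded the control of their number, by 1.27 to 3.62 times. With BMP3 the values were 476 and 373 in II and III and 221 in IV, which overlapped the controls.

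When the numbers were not used, leaving out single libraries took the adjusted p of Plat with BMP4, BMP5 and BMP7 past 0.05, while the log2 changes stayed at 0.98 to 1.36, against 1.25, 1.37 and 1.37 with all libraries. The BMP4 call was lost without BMP4 replicate II (adjusted p 0.0846), BMP4 replicate III (0.0643), control IV (0.0598) or control VI (0.0592). The BMP5 call was lost without BMP5 replicate II (0.0634) or III (0.124), or control IV (0.0788) or VI (0.0817), and the BMP7 call without BMP7 replicate II (0.0588) or III (0.0694), or control IV (0.067) or VI (0.0693). With all libraries, the BMP5 call was also lost when only the 2 groups compared were fitted (log2 1.37, adjusted p 0.0597).

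Timp3 (ENSMUSG00000020044), the matrix-bound inhibitor, had the largest fold of the 6 genes with BMP2. Controls II, III, IV and VI were at 145, 84.6, 125 and 93.3 normalized counts, and BMP2 samples at 2140, 3080, 3830 and 6780. No BMP2 sample came near a control, at 32.8-fold on average (log2 5.03, SE 0.409, limma adjusted p 1.91e-09), although the BMP2 samples differed among themselves more than for Mmp14. BMP5 gave 808, 1570 and 1830, and BMP7 gave 1910, 1310 and 1970. These groups were 12.0-fold and 15.4-fold above control (adjusted p 9.7e-06 and 2.29e-06). With BMP4, samples II and III were at 53.3 and 51.3 and sample VI at 229. Samples II and III were below all controls and VI above them, so the difference was not called (log2 -0.35, adjusted p 0.509). Without BMP4 replicate VI it was -1.05, with an adjusted p of 0.0194. BMP3, at 107, 78.6 and 98.9, overlapped the controls.

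Timp2 (ENSMUSG00000017466), which serves both as inhibitor and as a partner of Mmp14, moved least of the 6 with BMP2, BMP5 and BMP7. Controls were at 42.6, 43.1, 31.9 and 36.3 normalized counts and BMP2 samples at 112, 114, 57.6 and 70.9. All BMP2 samples exceeded the controls, 2.19-fold on average (log2 1.13, SE 0.243, limma adjusted p 0.000348). BMP5 samples, at 93.3, 78.7 and 63.9, were also all higher, at 2.01-fold (adjusted p 0.00807). The BMP7 values of 59.9, 45.5 and 46.2 were each above every control but the difference was not called (log2 0.38, adjusted p 0.278, interval of 2 SE from -0.14 to 0.91). With BMP4, 33.2, 20.5 and 21.5 overlapped the controls, at 0.65 times their level with an adjusted p of 0.0455. That call was the least stable of the set: it was lost under 11 of 19 other settings, with adjusted p from 0.00253 to 0.16, and without any 1 of BMP4 replicate III (0.16) or VI (0.135) or controls II (0.0932), III (0.0976) or VI (0.061). In a fit with the replicate number as a block, the BMP4 call of Timp2 was kept (log2 -0.69, SE 0.213, limma adjusted p 0.00864). BMP3, at 44.5, 27.0 and 40.3, overlapped the controls too.

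Timp1 (ENSMUSG00000001131), a secreted inhibitor, was too low for the test, with 0 to 2 reads in each control. BMP2 samples II, III, IV and VI had 6.81, 7.67, 10.6 and 6.33 normalized counts, from 5 to 9 reads. All were above all controls, and the BMP2 mean was at least 3.05-fold higher than the level of 3 reads in a control, 2.57 normalized counts. Means with BMP5 and BMP7 were at least 1.9-fold and 1.57-fold higher on the same floor, at 3 to 9 reads a sample. When the minimum was lowered to a mean of 1, a setting chosen after seeing the data, limma called Timp1 with BMP2 (adjusted p 0.00189), and it did not call it with BMP5 (0.0935), BMP7 (0.116) or BMP4 (0.832). BMP3 sample IV had 7.88 normalized counts, the other BMP3 samples 0 and 0.845. BMP4 samples had at most 1 read.

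**Figure D2:**
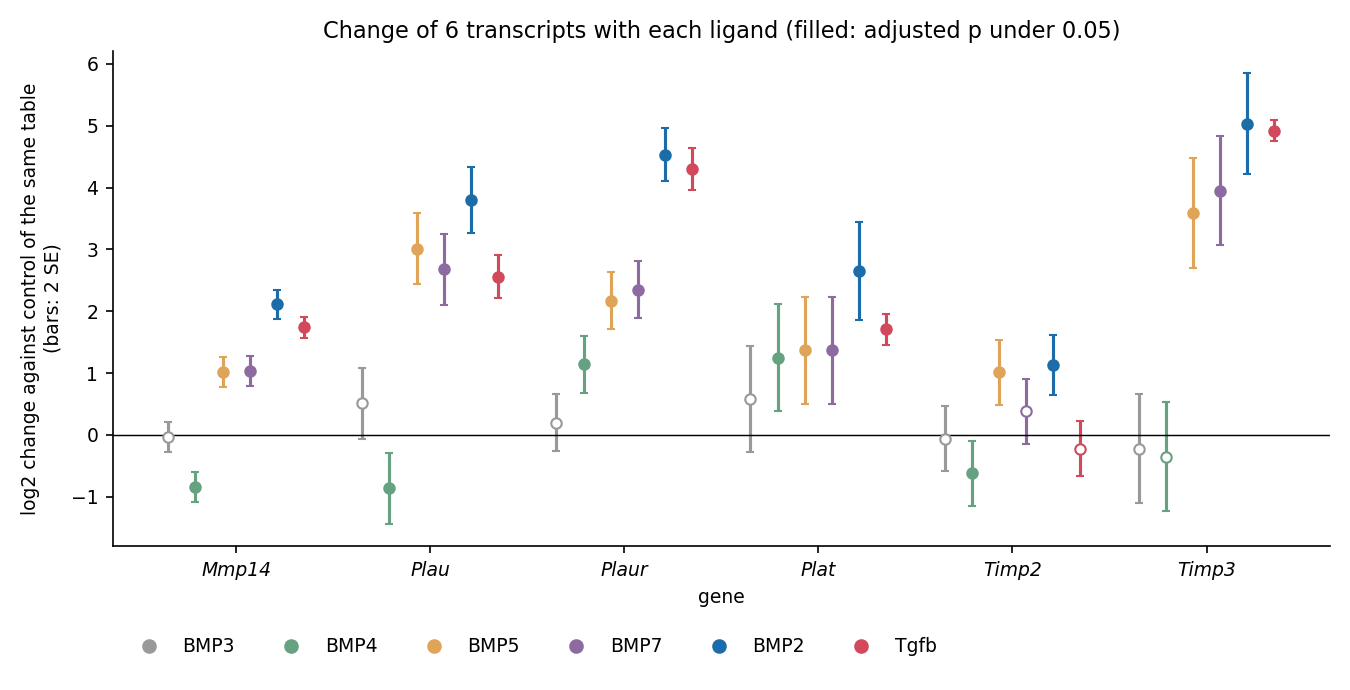
Log2 change of the 6 tested genes with each ligand against the controls of the same table, on the log2(value + 1) scale. Bars span 2 SE to each side, filled points have an adjusted p under 0.05, and the Tgfb values come from TPM rather than normalized counts. The BMP4 points of Mmp14, Plau and Timp2 are below 0, those of Plaur and Plat above.

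With BMP3 none of the 6 genes was called (log2 changes from -0.22 to 0.58, all at adjusted p 1.0), against 0.0% of all genes. Across the table, limma called 0 genes with BMP3, edgeR 0 and DESeq2 1, and 110 genes (0.746%) had an unadjusted p under 0.05. The 2 SE interval of Mmp14 was -0.28 to 0.21, narrower than that of Timp3, -1.1 to 0.67. A rise of Timp3 by as much as 0.67 on the log2 scale would therefore lie inside its interval.

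BMP4 raised 2 and lowered 3 of the 6 genes, against 33.7% of all genes raised and 31.4% lowered, a share of calls near the background. The median log2 change of the 6 was -0.48, against 0.04 over all genes. The count fell from 5 to 3 of 6 without BMP4 replicate III or without control VI, and to 4 without any other single sample of either group. BMP5 raised 6 of 6 genes, where 16.5% of all genes rose and 9.87% fell, with a median of 1.77 against -0.03. BMP7 raised 5 of 6, where 19.2% rose and 13.2% fell, with a median of 1.86 against -0.05. These comparisons share their 4 control samples, so their similarity is in part built in. The medians, too, are of genes chosen with earlier results of these data known.

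The ligands were also compared with each other at the same dose and time, in 3 pairs that do not use the controls. The F-test among the 5 ligands passed for 6 of 6 genes, with adjusted p from 4.59e-12 for Mmp14 to 0.00307 for Plat, as it did for 84.1% of all genes. Against BMP4, BMP2 gave higher values for 6 of 6 genes, where 33.4% of all genes were higher and 33.4% lower. In every one of the 6, all 4 BMP2 samples exceeded all 3 BMP4 samples. The difference was 41.7-fold for Timp3, 25.3-fold for Plau, 10.5-fold for Plaur, 7.71-fold for Mmp14, 3.38-fold for Timp2 and 2.64-fold for Plat. The limma adjusted p ran from 8.57e-13 for Mmp14 to 0.00782 for Plat, and Plat had 0.0633 without BMP4 replicate VI.

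Against BMP7, BMP2 was again higher for 6 of 6 genes, where 31.4% of all genes were higher and 31.4% lower. Plaur stood out in size, at 4.52-fold (log2 2.17, SE 0.23, limma adjusted p 2.04e-07), while the other 5 lay between 1.68-fold for Timp2 and 2.43-fold for Plat. Mmp14 differed 2.11-fold (adjusted p 5.25e-07) and Plau 2.17-fold (0.00236). Timp3, at 2.12-fold, had an adjusted p of 0.0395 and was lost under 9 of 19 other settings, and Timp2, at 0.0185, under 5. The count fell to 3 of 6, with Mmp14, Plau and Plaur left, without BMP7 replicate VI or when every sample was scaled to the same total, which moves the median of all genes by -0.38.

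BMP5 and BMP7 were not told apart for any of the 6 genes, against 0.0136% of all genes called in either direction. Across the table limma called 2 genes, edgeR 4 and DESeq2 23, with 347 genes (2.35%) at an unadjusted p under 0.05. The 2 SE interval of the log2 difference was tight for Mmp14, from -0.27 to 0.25. It was wide for Timp3, from -1.31 to 0.58, and for Plat, from -0.92 to 0.92, in this fit, which does not use the replicate numbers. With the replicate number as a block, the SE of Plat was 0.199 rather than 0.461. That of Timp3 was 0.392 rather than 0.472. The wide interval of Plat thus holds only for the fit without the numbers, while Timp3 stayed imprecise in both. The 3 BMP5 values of Timp2 all exceeded the 3 BMP7 values (log2 0.62, unadjusted p 0.0395, adjusted p 1.0).

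Tgfb raised Mmp14, Plaur, Plat and Timp3, 4 of the 5 genes whose controls reached the minimum of 1 TPM, and Timp2 was not called. Across 12959 genes tested, 27.4% rose and 29.3% fell. Plau passed the minimum only through the treated samples and is left out of that count. In TPM, which corrects for transcript length, the genes can be ranked against each other. In control organoids Mmp14 was highest at 22.9 ± 1.07 TPM (SD, n = 3), followed by Plaur at 3.12 ± 0.808, and the other tested genes were under 2. With Tgfb, Plaur at 79.4 ± 10.3, Mmp14 at 79.2 ± 6.86 and Timp3 at 62.3 ± 4.44 stood at nearly the same level.

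**Figure D3:**
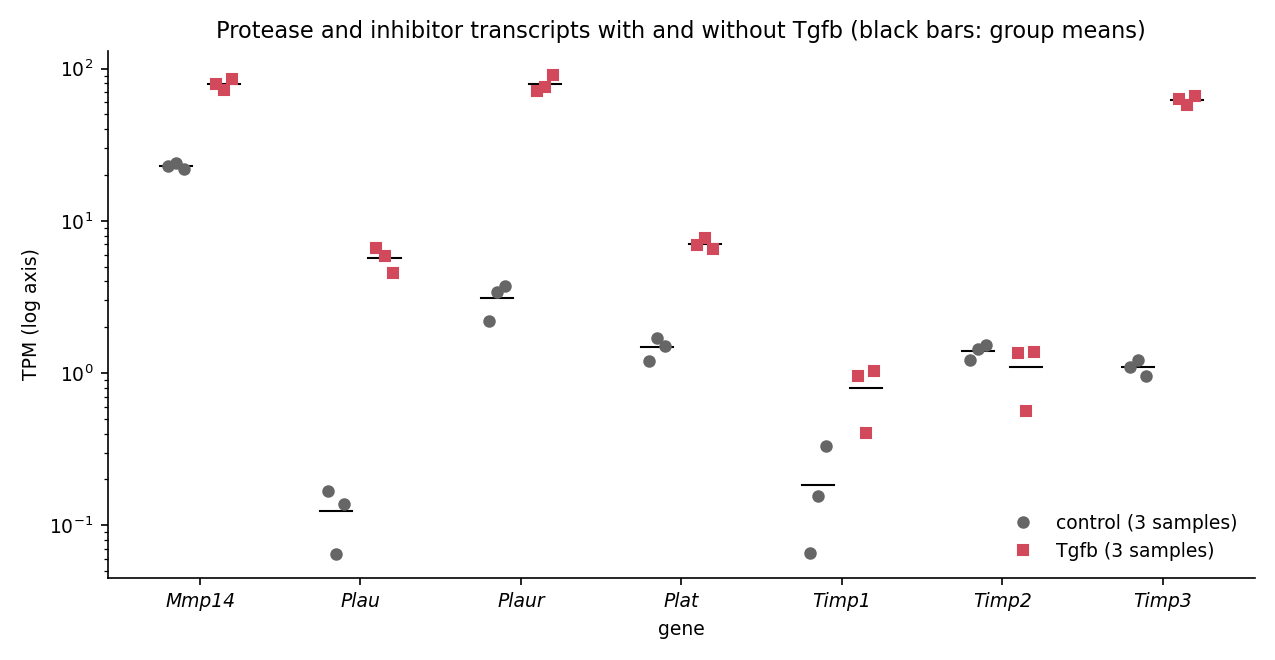
TPM (log axis) of 7 genes in the 3 control and 3 Tgfb-treated organoid samples; points are samples and black bars are group means. Timp3 moves from about the level of Timp2 to about that of Mmp14, and the Timp2 samples of both groups overlap.

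Timp3 was at 1.10, 1.22 and 0.961 TPM in controls I, II and III and at 62.7, 57.7 and 66.5 TPM with Tgfb. The treated samples were 47.1 to 69.2 times the control of the same number. On the log2(TPM + 1) scale, which understates the change of low genes, the change was 4.92 (SE 0.087, limma adjusted p 1.71e-06). Plaur went from 2.21, 3.40 and 3.75 TPM to 71.8, 75.3 and 91.2 TPM. The groups did not overlap, with a log2 change of 4.30 (SE 0.171, limma adjusted p 1.01e-05). Mmp14, which opens the way to Mmp2 activation, went from 22.9, 24.0 and 21.9 TPM to 79.4, 72.2 and 86.0 TPM. Its log2 change was 1.74 (SE 0.083, adjusted p 1.82e-05 from limma).

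Plau was nearly silent in controls, at 0.167, 0.0649 and 0.139 TPM, and stood at 6.59, 5.91 and 4.51 TPM with Tgfb. Because only the treated samples took it past the minimum, its test is given with no minimum, where the log2 change was 2.56 (limma adjusted p 0.000243). The size depended on the added constant, from 1.05 with 5 to 4.70 with 0.1. Plat rose from 1.20, 1.71 and 1.51 TPM to 6.97, 7.73 and 6.57 TPM (log2 1.71, limma adjusted p 7.95e-05). Both activators were thus higher in every treated sample than in any control. Timp2 was at 1.22, 1.43 and 1.53 TPM in controls and 1.35, 0.564 and 1.37 TPM with Tgfb. These values overlapped and were not called (log2 -0.22, adjusted p 0.44, interval of 2 SE from -0.66 to 0.23). Timp1 was at 0.066, 0.155 and 0.332 TPM in controls and 0.952, 0.405 and 1.03 TPM with Tgfb, under the minimum. With a minimum of 0.1 TPM, chosen after seeing the data, limma put its change at 0.59 on the log2 scale (adjusted p 0.036, and 0.0495 with no minimum).

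The ratio of an inhibitor to a protease transcript was followed for Timp3 and Mmp14, which rose together with 4 of the ligands. The ratio of Timp3 to Mmp14 in TPM was 0.0477 ± 0.00353 in controls and 0.787 ± 0.0123 with Tgfb (SD, n = 3 each). In normalized counts, where length is not corrected and only the change between groups can be read, the ratio was 0.105 ± 0.0248 in the 4 controls and 0.855 ± 0.423 in the 4 BMP2 samples (mean ± SD). The 3 BMP5 samples gave 0.624 ± 0.145 and the 3 BMP7 samples 0.784 ± 0.0941, with no overlap with the controls in any of these groups. With BMP3 it was 0.0907 ± 0.0103. With BMP4 it was 0.174 ± 0.138, where sample VI stood at 0.333. The ratios were compared by their ranges, with no test.

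Markers of other cell types were set beside these values. The summed level of the 10 epithelial markers was 149740 to 173350 normalized counts in controls and 794820 to 1027840 with BMP2, so it moved with the rise of the 6 genes. It was 356630 to 497000 with BMP4, where Mmp14 and Plau fell. The largest part of the sum was Krt8, at a mean of 34100 in controls and 285250 with BMP2. Krt19 had means of 22100 and 163500. Cdx2 did not rise, at 1740 to 2490 in controls and 1030 to 2240 with BMP2. The 8 listed mesenchymal markers summed to 135.6 to 220.8 in controls, 73.0 to 95.3 with BMP2, 29.7 to 47.8 with BMP4, 139.3 to 188.5 with BMP5 and 72.6 to 107.7 with BMP7. Most of that sum was Vim, at a mean of 149.2 in controls and 34.5 with BMP2. Pdgfra went the other way, from 0 to 1.78 in controls to 12.8 to 37.5 with BMP2, and Col1a1 was at 0.826 to 19.5 in controls and 10.2 to 20.5 with BMP2. The 10 mesenchymal markers summed to 5.16 to 8.31 TPM in the Tgfb controls and 7.41 to 9.62 TPM with Tgfb, with Col1a2, Col3a1, Dcn and Lum at 0 in all 6 samples, so the treated samples overlapped the controls there and reached higher. The 8 immune markers summed to 69.2 to 87.1 in controls, 91.8 to 186.2 with BMP2 and 141.6 to 232.6 with BMP4. They did not move together. With BMP2, the mean of Cd68 went from 22.6 to 50.8 and that of Csf1r from 4.32 to 35.7, while Itgam fell from 41.6 to 14.2. With BMP4, Itgam was at a mean of 149.7 and Cd68 at 22.2. The 4 listed endothelial markers summed to 569.8 to 776.5 in controls, 837.6 to 1027.3 with BMP2 and 868.6 to 1032.4 with BMP4. Nearly all of that sum was Pecam1, at a mean of 671.5 in controls and 882.0 with BMP2. In the Tgfb controls Pecam1 was at a mean of only 0.454 TPM. Cdh5 was at 0 in all controls of the BMP table and at 22.7 to 40.9 with BMP2. The 4 listed glial and neuronal markers summed to 22.3 to 24.9 in controls and 32.0 to 44.3 with BMP2. The part of these in the results was not tested.

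In both mesenchymal samples all 10 genes were above 0 TPM, including the 3 metalloproteinases that were nearly without reads in organoids. Mmp13 was under 1 TPM in the immortalised sample, at 0.319 TPM, and was above that level only in the fresh one. With 1 sample each, no test can be made, and no replicate check exists. The fresh sample held Mmp14 at 649 TPM, Timp2 at 373, Timp3 at 356, Timp1 at 159, Mmp10 at 106 and Mmp2 at 103. The immortalised sample held Timp2 at 792 TPM, Mmp14 at 336, Timp3 at 204 and Timp1 at 194. Differences of at least 2-fold on the log2(TPM + 1) scale were found for 5 of the 10 genes, 3 lower and 2 higher in the immortalised sample, where 10.7% of 13652 genes were lower and 6.26% higher. Lower were Mmp10, from 106 to 4.19 TPM (log2 -4.36), Mmp2, from 103 to 7.22 TPM (-3.66), and Mmp13, from 6.15 to 0.319 TPM (-2.44). Higher were Plaur, from 15.9 to 34.9 TPM (1.09), and Timp2 (1.09). Plau was at 54.5 and 49.9 TPM and Plat at 37.9 and 20.7 TPM, inside the 2-fold limit.

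**Figure D4:**
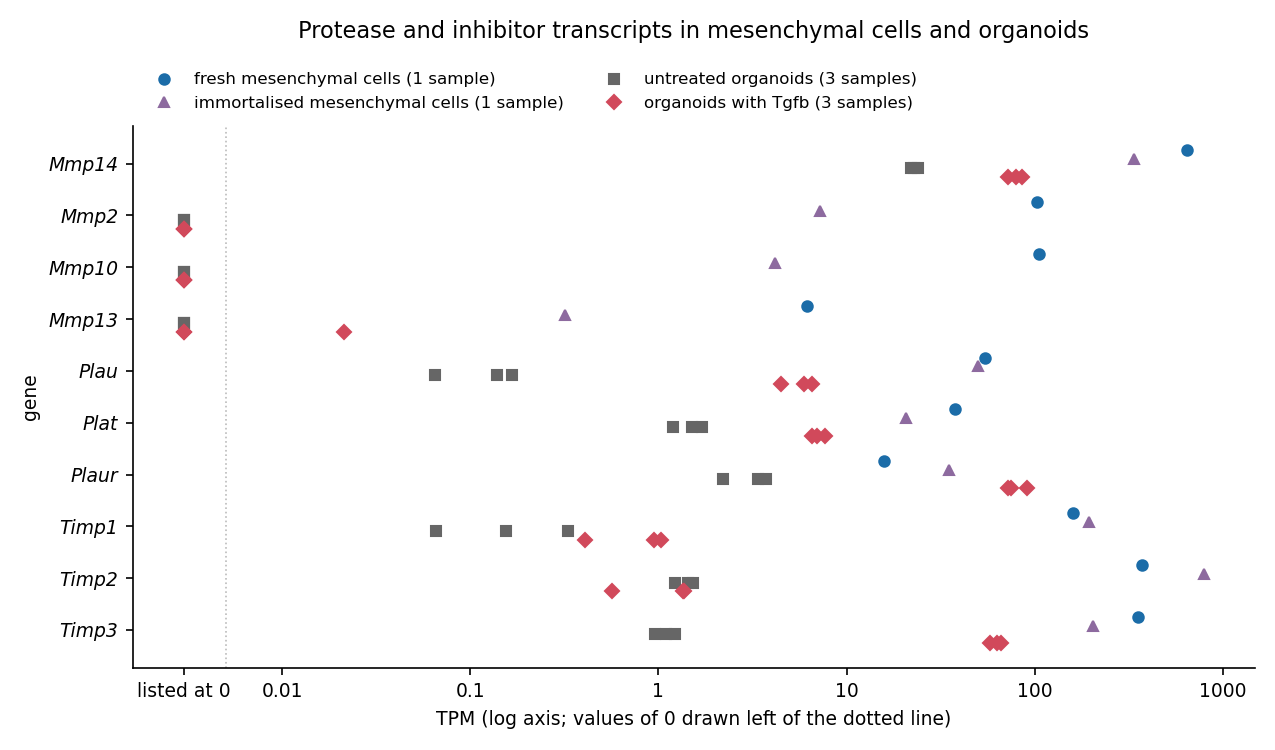
TPM (log axis) of the 10 genes in the 2 mesenchymal samples and in the 6 organoid samples of the Tgfb table; values of 0 are drawn at the left edge. The tables were normalized separately. Mmp2 and Mmp10 are at 0 in all organoid samples and between 4.19 and 106 TPM in the mesenchymal samples, and Plaur with Tgfb lies above both mesenchymal samples.

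Set beside the organoids, with the limit that the tables were normalized separately, 9 of the 10 genes were lower in every organoid sample than in both mesenchymal samples. The exception was Plaur, at 71.8 to 91.2 TPM in Tgfb-treated organoids and 15.9 and 34.9 TPM in the mesenchymal samples. Untreated organoids held Timp1 at 0.184 ± 0.135 TPM and Timp2 at 1.39 ± 0.16 TPM (SD, n = 3 each), against 159 TPM or more in both mesenchymal samples. The fresh sample held more markers of other cells than the immortalised one, with immune markers summing to 17.3 against 1.04 TPM, endothelial markers to 20.5 against 1.73 TPM and epithelial markers to 36.8 against 8.85 TPM. Mmp12, the macrophage metalloelastase, was at 59.8 and 0.46 TPM. The part of such cells in the lower Mmp10, Mmp2 and Mmp13 was not tested.

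The other genes of matrix proteolysis were described by 6 lists of 85 genes, with the same calls. Of these, 58 were tested in the BMP table, of which 7 had a control mean under the minimum and so were tested only through ligand groups. The counts that follow leave those out, since such genes had to differ. Of 6 other metalloproteinases, BMP2 raised 3 and lowered 3, against 36.8% and 38.4% of all genes, and BMP4 raised 3 and lowered 0, against 33.7% and 31.4%. Mmp15 and Mmp28 rose with BMP2, BMP4, BMP5 and BMP7, and Mmp7, the matrilysin of Paneth cells, fell with BMP2 (log2 -1.19, limma adjusted p 5.13e-05). Of 12 other plasminogen system genes, BMP2 raised 9 and lowered 1. BMP4, BMP5 and BMP7 raised 6 each, against 33.7%, 16.5% and 19.2% of all genes. Tgfb raised 7 of the 9 genes of this list whose controls reached 1 TPM and lowered 0, against 27.4% and 29.3%. The list also holds coagulation genes and receptors, among them F3, F2r and F2rl1, which were in the count raised by BMP2.

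**Figure D5:**
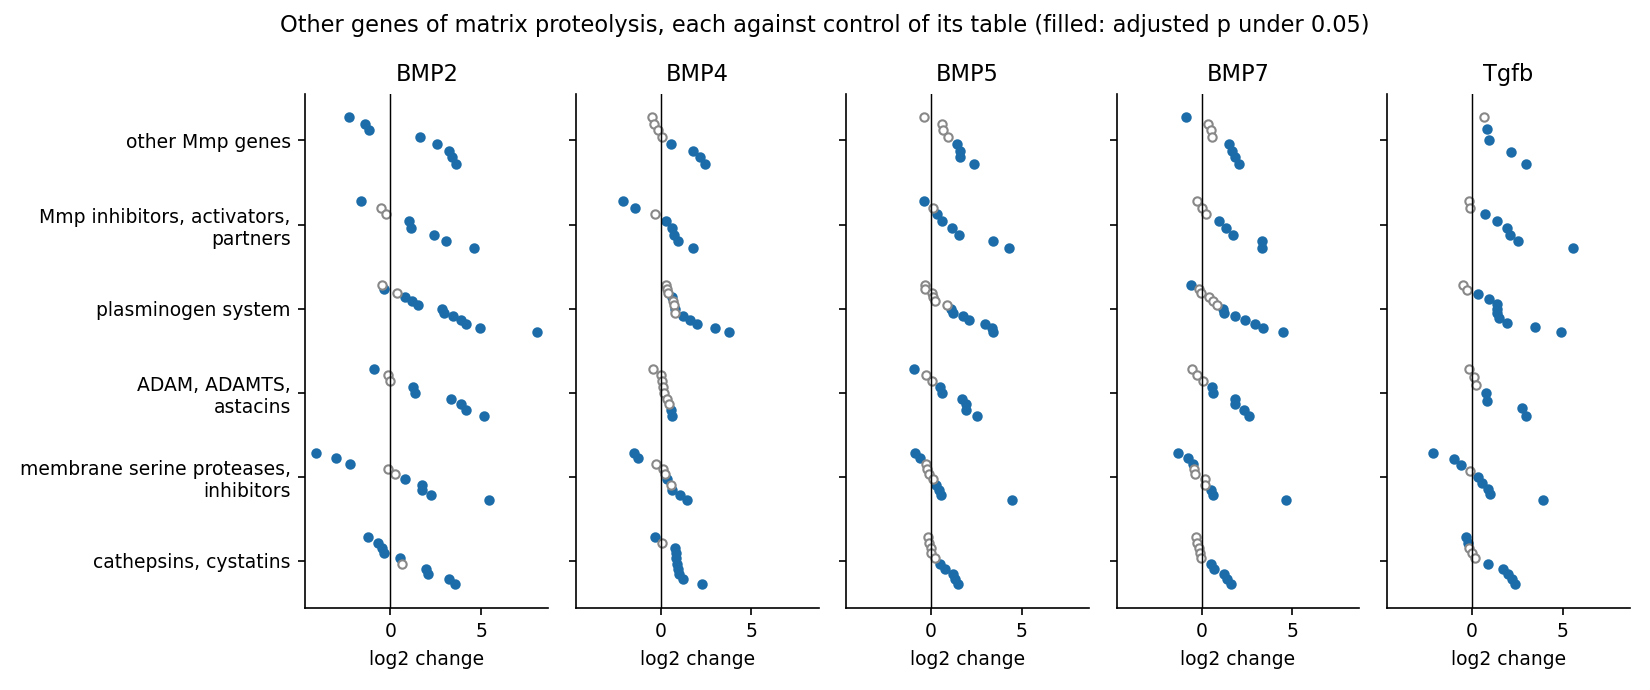
Log2 change of every tested gene of the 6 lists, those under the minimum in controls included, with 4 BMP ligands and Tgfb against the controls of the same table; each point is a gene, filled where the adjusted p is under 0.05. The plasminogen system genes lie mostly right of 0 with every ligand shown, and the membrane serine proteases lie on both sides.

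Serpinb8, an intracellular serpin, had the largest change among the listed genes under BMP2 and BMP4. It had at most 2 reads in any control and 305 to 409 normalized counts with BMP2, a mean at least 138.3-fold higher than the level of 3 reads. With BMP4 its mean was at least 7.5-fold and with BMP7 at least 11.5-fold higher than that level. F3, tissue factor, rose most of the plasminogen list with Tgfb, from 8.53 to 12.1 TPM in controls to 305.4 to 392.6 TPM (log2 4.94, adjusted p 4.62e-06).

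Thbs1, a matrix glycoprotein that can activate latent Tgfb, had calls like those of Mmp14. It was at 294 to 1620 normalized counts in controls, 14000 to 17900 with BMP2 and 89.8 to 258 with BMP4. The change was 4.63 with BMP2 and -2.08 with BMP4 on the log2 scale (limma adjusted p 2.76e-08 and 0.00109), and 5.56 with Tgfb. Lrp1, the endocytic receptor that clears protease-inhibitor complexes, had the next largest rise with BMP4 after Serpinb8 among called listed genes without overlap. It went from 947 to 1830 in controls to 6650 to 13300 with BMP4 (log2 2.98, limma adjusted p 2.01e-07). Lcn2, a binding partner of a gelatinase, was at 33.2 to 131 normalized counts with BMP5, against 0.83 to 8.87 in controls. It was tested only through the BMP5 and BMP7 samples, and with no minimum its log2 change with BMP5 was 4.28 (limma adjusted p 0.000132). It had 0 reads in all 4 BMP2 samples.

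In the list of membrane serine proteases and inhibitors, Prss22 was at 3.55 to 6.61 normalized counts in controls, under the minimum, and at 4.74 to 9.57 with BMP4. BMP2 samples held 175 to 349, BMP7 samples 105 to 221, and those given BMP5 44.0 to 216. With no minimum, the log2 change was 5.45 with BMP2, 4.44 with BMP5 and 4.68 with BMP7 (limma adjusted p 8.82e-10, 1.51e-06 and 5.45e-07). In the Tgfb table it was at 0 to 0.09 TPM in controls and 13.3 to 17.5 TPM with Tgfb, so it was tested there only through the treated samples and no test is given. Dpp4, a brush-border peptidase of enterocytes, went the other way: it fell with BMP2 (-4.08), BMP5 (-0.87), BMP7 (-1.28) and Tgfb (-2.13), and rose with BMP4 (1.07, adjusted p 0.000297). Hpn fell with BMP2 (-3.02) and BMP4 (-1.47), and Prss8, an epithelial membrane protease, fell with BMP5 (-0.59), BMP7 (-0.77) and Tgfb (-1.01). Adamts15 fell with BMP2 (-0.88) and BMP5 (-0.94). Mmp12 fell with BMP2 (-1.4, adjusted p 0.000192) and with BMP7 (-0.88, adjusted p 0.0346). It was at 28.9 to 51.5 normalized counts in controls and 16.3 to 25.5 with BMP7, and the BMP7 call was lost under 6 of 18 other settings. In the Tgfb table Mmp12 was nearly absent, at a mean of 0.00382 TPM in controls and 0 in all Tgfb samples. With genes under the minimum in controls again left out, of 8 ADAM, ADAMTS and astacin genes BMP2 raised 5 and lowered 1, and BMP4 raised 2. Of 10 cathepsin and cystatin genes, BMP2 raised 5 and lowered 4, near the 36.8% and 38.4% of all genes, while BMP4 raised 8 and lowered 1, against 33.7% and 31.4%. Of 8 membrane serine proteases and inhibitors BMP2 raised 3 and lowered 3, which is near the share of all genes, and of 7 other partners of the metalloproteinases it raised 5 and lowered 0.

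The genes whose 5 changes with the BMP ligands differed least from those of a member were found over all genes tested, as a description. For Mmp14 they were Fhl2 and Fhl3, which encode LIM-domain proteins, with a mean absolute difference of 0.087 and 0.105 on the log2 scale. For Plaur they were Srgap1 and Col7a1, both at 0.112, and for Timp3 Zfp469 (0.116) and Hcar2 (0.265). Those of Plau were Lancl3 (0.193) and Paqr5 (0.24), those of Plat Gm2895 (0.108) and Erc2 (0.128), and those of Timp2 Rora (0.113) and Cyba (0.136). Col7a1, the collagen of anchoring fibrils below epithelia, changed by 4.77 with BMP2 and 1.1 with BMP4 on that scale. All 5 changes share the same 4 control samples.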

How the data were processed

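mRNA was sequenced from 28 samples. Per the submitters' processing notes, Trim Galore, Salmon and DESeq2 were used with build GRCm39, with no versions or roles named. The deposited values of the BMP table are a signal: read counts divided by 1 size factor per sample, kept to 3 digits. This was read from the values, since 100% of 180236 low values, up to 20 reads, were whole multiples of 1 read within 0.1 read. The deposited values of the other tables are TPM, summing to 1000000 per sample, with unknown depth.

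Groups came from the labels, and 0 columns were left unmapped. Tests used limma 3.58.1 (R 4.3.3) on log2(value + 1) with an intensity trend, two-sided, at a mean of at least 10 (BMP table, all 6 groups in 1 fit) or 1 TPM (Tgfb table). The design foresaw edgeR only for a table of raw counts, and edgeR 4.0.16 and DESeq2 1.42.0 were run on recovered reads as alternatives, with other constants, minimums, scalings and left-out samples. The code was tested on simulated data. Read floors of 3 counts cover counting error only, since PCR copies cannot be told from separate molecules here. SE are limma's.

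Members and gene lists were chosen with earlier results of these data known. All 10 members are named. From 6 lists, the 2 genes that rose and the 2 that fell most in each comparison with control, among called genes without overlap, are named, and for each tested member the 2 genes with the most similar changes. Mmp7, Mmp15, Mmp28 and, in mesenchymal cells, Mmp12 were named after their values were seen.

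Same-numbered samples deviated together from their group means for BMP3, BMP4, BMP5 and BMP7 against control and for BMP5 against BMP7 (every correlation from 0.15 to 0.553), so the numbers were taken to pair those samples. Promoter windows came from RefSeq. Gene coordinates on GRCm39 are not given here.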

Additional observations from a re-analysis of the deposited data

Results flagged for a closer look

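Mmp13 in the BMP controls was set apart by 1 sample: control II held 0.888 normalized counts, which is 1 read, and the other 3 controls held 0. At 1 read the value carries no further information. Any group with reads in 1 sample and 0 in the other 3 is set apart by the rule used, whatever the spread. Mmp13 in the controls was the only one of 17 member groups of 4 samples with a sample so far from the rest.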

How the results depend on the processing

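No called value of a member or named gene changed direction under any alternative run. Of 1187 alternatives for single genes, 1143 kept the call or its absence, 43 lost it and 1 gained it. Of 273 alternatives for values that were never past the threshold, 15 had another sign. The count of members changed with BMP4 was 3 to 4, against 5, when single samples were left out, with 3 without BMP4 replicate III and without BMP control replicate VI. The count for BMP2 against BMP7 was 3 to 5, against 6, in the same way, with 3 without BMP7 replicate VI, and 3 after scaling each sample to 1 total. For Tgfb the count was 3 at a minimum mean of 10 TPM, where only 3 members remained to be tested. The cause of the other losses was not tested. With the replicate number as a block, no call of a member changed: the counts stayed at 6 for BMP2, 5 for BMP4, 6 for BMP5, 5 for BMP7 and 5 for Tgfb with Plau counted, and the adjusted p of Plat was 0.000112 with BMP4, 0.00016 with BMP5 and 0.000127 with BMP7. For BMP2 against control the same-numbered samples correlated at 0.195 (II), 0.421 (IV) and 0.308 (VI), but at 0.018 for number III. The numbers were therefore not taken to pair all of those samples, although some deviated together. For Tgfb the correlations of same-numbered samples were 0.004 to 0.07, and the numbers were not taken to pair them. Depth limits Mmp2, Mmp13 and Timp1, which had at most 9 reads in any sample of the BMP table.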
